A study of Drosophila melanogaster with 16 samples.

Results

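Gene expression in the antennae was compared between flies labelled 28 h starved and flies labelled fed. The comparison rests on 8 of the 16 arrays of the study, namely the 4 antennal arrays of each label, which were chosen by their tissue label and not by any measured value. The other 8 arrays held brain RNA. All flies were female Drosophila melanogaster with a stated age of 5 to 7 days. The starved group had been without food for 28 h and the fed group for 0 h, and the methods state that the fed flies had access to sucrose. Each of the 4 extracts per group came from 100 antennae of 50 different flies, so every value is the mean over a pool. An antenna holds several cell classes, and in such bulk samples fewer cells of a type and less RNA per cell cannot be told apart. Each extract was hybridized to 1 array, on which copies of its RNA marked with a single dye bind to probes for known or predicted transcripts. Levels are given as the log2 of the spot signal relative to the 75th percentile of the same array, so that 0 stands for the level of that percentile. Levels of different genes are not comparable on this scale because every probe binds with its own strength.

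The antenna is the main nose of the fly. Olfactory sensory neurons send ciliated dendrites into porous hairs, the sensilla, where tuning receptors of the odorant receptor (Or) family sit with the co-receptor Orco, and those of the ionotropic receptor (Ir) family sit with Ir8a, Ir25a or Ir76b. Support cells around the neurons secrete odorant-binding proteins and other carriers into the lymph that bathes the dendrites, and enzymes of detoxification families are thought to clear odorants from it. The second antennal segment houses Johnston's organ, the ear of the fly, whose mechanosensory neurons have a motile cilium. Hunger is known to change olfactory sensitivity, and the study asked which transcripts in the nose change when flies are starved. The data are described here for whole classes of genes. For the lists, the number of members tested and the number called are given. The shares of calls over all matched genes are stated before the lists, and each count is to be read against them.

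The tissue label was borne out by the antennal genes. Orco averaged 4.15 ± 0.04 with the starved label and 4.02 ± 0.13 with the fed label (mean and SD of 4 arrays each), and −3.29 over the brain arrays. The condition labels need a caution. Pepck1, which encodes the enzyme that commits carbon to gluconeogenesis and is usually raised by fasting, was lower on every array labelled starved, and 2 genes usually induced by sugar feeding were higher there, as described below. For AstA, a neuropeptide gene, the direction under the labels is also the opposite of that in the text of the study. All directions below are therefore those of the array labels, and "higher" or "lower" means on the arrays labelled starved relative to those labelled fed. The label of an array could not be checked by other means.

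The arrays of a group resembled each other closely, with correlations between replicates of 0.989 to 0.997 for the starved label and 0.985 to 0.995 for the fed label. The share of spots well above background was 66.4 ± 0.902% and 69.1 ± 1.29% (mean and SD of 4 arrays each), and did not overlap between the groups (exact permutation test, two-sided, p = 0.0286, the smallest p that 4 arrays against 4 allow). Every slide held 1 array of each group, always at the same position, so position on the slide and group cannot be told apart. Tests were run on the 20586 probes that were well above background on every array of 1 label or both. These probes covered 14885 genes and unmatched transcripts, of which 9881 were matched to a current gene name. Counting any probe of a gene, 1809 genes were higher (12.2%) and 3179 were lower (21.4%) at an adjusted p of 0.05, while another 99 had calls both ways at different probes. The split depended on the scaling, with 5528 higher and 1449 lower under median centring and 2866 and 1709 under quantile scaling. By the brightest probe of each gene, 1653 were higher (11.1%) and 2574 lower (17.3%), which is 28.4% in either direction. Most changes were small, with 38 of these genes higher and 448 lower by at least 2-fold.

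The lists below hold matched genes only, and their calls are read from the brightest probe. Over the 9881 matched genes, 13.4% were called higher, 12.4% were called lower, 25.8% were called in either direction, and 30.3% had groups that did not overlap. Their median change was +0.03. The lists were compiled with earlier results of these data known, so a count above these shares describes the list and is not independent support. With the median of each array as the zero point instead of the 75th percentile, centring raised the median change of all genes tested to 0.19, against −0.02 as reported, and changes near 0 carry no direction for that reason.

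Transcripts known from other tissues were found in single extracts, those of the gut most clearly. Where they came from was not tested. The summed linear level of the 38 gut genes on the array was 6.36, 6.87, 7.70 and 8.40 on the arrays labelled starved, and 162, 334, 9.74 and 6.36 on fed replicates 1 to 4. By this sum fed replicates 1 and 2 stood far apart from the other 6 arrays, on 5 of which LManII was the brightest member and on 1 Ser7. The median linear level of the gut genes was 0.00799, 0.00631, 0.00389 and 0.0146 on the starved label and 0.337, 0.691, 0.0641 and 0.0235 on the fed label, so that by the median all 4 fed-labelled arrays, replicates 3 and 4 included, lay above the starved label. Of the 40 gut genes, 15 to 21 were well above background on a starved-labelled array and 27, 31, 24 and 21 on the fed-labelled arrays. Alpha-trypsin (alphaTry) shows the pattern of the digestive proteases, with −2.96, −3.78, −4.25 and −2.22 on the starved label and 4.62, 5.21, −1.27 and −2.56 on the fed label. Its groups overlapped, and its change of −4.80 was not called (adjusted p = 0.0668). The maltase Mal-A1 read −2.0, −2.02, −1.90 and −1.73 on the starved label against 2.25, 3.59, −1.39 and −1.69 on the fed label. Jon99Ci, another gut protease, was above background on 0 starved-labelled and 3 fed-labelled arrays. In the fit over all genes, 21 gut genes were tested, 10 were lower and 2 were higher, with a median change of −4.33. After adjustment the methods' t-test called 0 lower and 2 higher, with 12 lower at an unadjusted p of 0.05. Without fed replicates 1 and 2, limma called 5 lower and 1 higher, and the median was −1.44. The gut genes Jon65Ai (−6.15), Jon99Cii (−6.80), betaTry (−5.95), CG18179 (−6.14) and Jon65Aiii (−5.09) were likewise highest on fed replicates 1 and 2, and so was Mal-A6 (−4.96), a maltase gene that was counted under the response to sugar. The 2 gut-list genes that were higher, LManII (a lysosomal mannosidase, +0.42) and Ser7 (a serine protease, +0.44), did not show this pattern. Of the 4 starved-labelled arrays, Jon99Cii was above background on 1, and Jon65Ai and Mal-A6 on 2. These 3 genes were tested because of their levels on the fed label, and the sizes of their changes rest on values at the edge of detection.

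Brain peptide transcripts were also higher on some fed-labelled arrays. Over the 21 neuropeptide genes of the brain list, the median antennal level as a share of the brain level was 0.475%, 0.379%, 1.10% and 0.467% on the starved label and 3.41%, 2.21%, 1.81% and 0.646% on the fed label. Fed replicate 4 fell within the range of the starved label, and fed replicates 1 to 3 lay above it. On the array of each extract, 9, 9, 15 and 9 of these genes were above background for the starved label and 20, 19, 17 and 11 for the fed label. Their summed level spanned 6.23 to 6.84 on the starved label and 5.88 to 9.02 on the fed label. Pdf, a clock-neuron peptide, read −8.46, −8.36, −5.13 and −8.11 on the starved label, where 1 array was above background, and −2.26, −3.63, −2.64 and −6.14 on the fed label. The insulin-like peptide gene Ilp2 was above background on 0 starved-labelled and 3 fed-labelled arrays, and SIFa on 0 and 2. Of the 10 peptide genes tested, 5 were lower and 0 higher by limma, with 1 higher at an unadjusted p of 0.05 and 0 by the methods' t-test. The 5 were Pdf (−3.84), AstA (−1.85), the feeding peptide NPF (−1.22), Dh44 and CCHa1, and 3 were lower and 1 higher without fed replicates 1 and 2. The part of brain RNA in these 5 changes was not tested here.

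Transcripts of the eye, muscle and fat body were also present, and those of the gonads only in part. The summed levels of these lists overlapped between the labels except for the ovary. All 19 photoreceptor genes were above background on every array, and their summed level was 148 to 254 on the starved label and 176 to 246 on the fed label. The summed muscle level was 66.6 to 162 and 103 to 156, with starved replicates 1 and 2 lowest. The myosin gene Mhc, for example, read 2.03, 1.76, 2.83 and 3.30 on the starved label and 2.91, 3.53, 3.18 and 3.03 on the fed label. The fat body sum was 18.0 to 37.8 and 15.9 to 31.5. Of the tested genes of each list, 4 photoreceptor genes fell, rdgA (−0.73) and inaD (−0.66) the most, and 2 muscle genes fell, up (−1.87) and TpnC73F (−1.23), while 0 rose in either list by limma, also at an unadjusted p of 0.05 and by the methods' t-test. The groups of inaD overlapped and 13 alternatives did not call it, and without fed replicates 1 and 2 only 1 gene of each list fell. Of the gonad genes, testis and male gland transcripts summed to 0.722 to 1.07 and 0.753 to 1.73, and ovary transcripts to 0.187 to 0.265 and 0.274 to 0.448 without overlap. The testis genes can (−1.41) and dj (−1.40) and the ovary genes vas (−1.0) and Vm32E (−0.28) fell. The seminal genes SP and Acp36DE and the ovary genes Cp36, Cp19 and Vm26Aa were at background on all arrays. Of the 18 ovary genes, 5, 3, 3 and 3 were well above background on the starved-labelled arrays and 5, 7, 7 and 7 on the fed-labelled arrays. Most of the ovary list was thus not detected, and its sums rest on few genes. Counts that change by more than 1.5 times when fed replicates 1 and 2 are left out are also given without them, a setting chosen after the data were seen. With fewer arrays fewer genes pass the test, and over all matched genes 5.77% were then called higher and 7.89% lower.

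**Figure D1:**
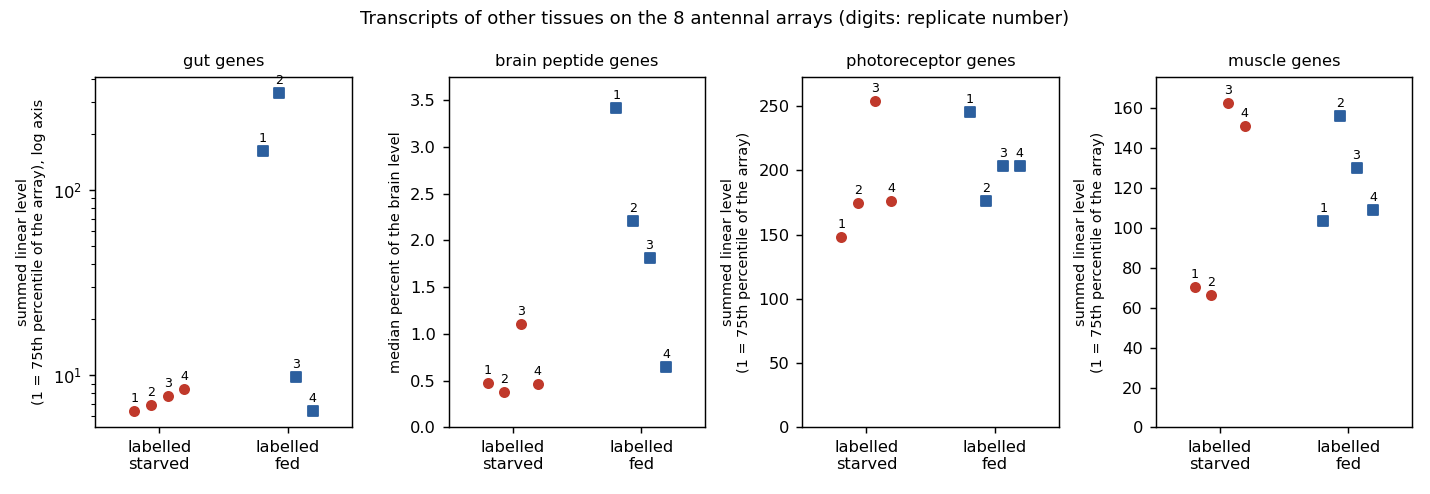
Transcripts of other tissues on each antennal array: summed linear level of gut genes (log axis, 1 is the 75th percentile of the array), median percent of the brain level over brain peptide genes, and summed linear level of photoreceptor and muscle genes, by label and with the replicate number beside each point. Fed replicates 1 and 2 stand apart for gut genes with 162 and 334, while the other 6 arrays lie between 6.36 and 9.74.

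The odorant receptors moved as a class. Of 38 receptor genes assigned to adult antennal neurons, 37 had a probe and 34 were tested, of which 27 were higher and 0 lower on the arrays labelled starved by limma, beside 13.4% of all matched genes called higher. None was lower at an unadjusted p of 0.05 either, and the methods' t-test called 26 higher and 0 lower after adjustment. A change above 0 was found for 33 of the 34, and the median was +0.38, beside +0.03 for all matched genes. In 27 of the 34 the groups did not overlap, beside 30.3% of matched genes. The median within the 4 slides was 0.38, 0.48, 0.36 and 0.46. Or19b had no probe, and Or33b, Or49a and Or98b were too dim to be tested. Each change was modest, and the largest, of Or82a, was 1.71-fold.

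The receptors with the largest changes were set apart from the fed label on every array. Or82a, which responds to geranyl acetate, read −0.46, −0.34, −0.27 and −0.42 on the starved label and −1.01, −1.13, −1.09 and −1.36 on the fed label, a change of +0.77 (SE 0.09, adjusted p = 0.00128). Or67c read −2.49, −2.42, −2.37 and −2.29, against −2.94, −3.23, −3.20 and −3.21, a change of +0.75 (SE 0.08, adjusted p = 0.0012). The replicates of each label lay within a narrow band, and the lowest starved-labelled array was well above the highest fed-labelled one. Or85b (+0.74) and Or67b (+0.74, with +0.59 at a further probe) had changes of the same size.

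Grouped by sensillum, receptors of trichoid and intermediate sensilla had the largest median change, although the 4 largest single changes, given above, lay outside them. The sensillum assignment was added after the values were seen, so it is given without a test. Only some of the receptors in these hairs detect odours of other flies. Of 12 receptors of trichoid and intermediate sensilla, 11 were tested and 10 were higher (7 without fed replicates 1 and 2). The median change of those tested was +0.62, with a range of 0.28 to 0.70. Or47b, a receptor for fly-derived fatty acid esters, read 3.11, 3.21, 2.95 and 3.28 on the starved label against 2.53, 2.36, 2.53 and 2.38 on the fed label, a change of +0.69 (SE 0.09, adjusted p = 0.0018). Or88a, its neighbour in the same hairs, read 0.74, 0.84, 0.87 and 0.82 against 0.03, 0.12, 0.12 and 0.20, a change of +0.70 (SE 0.06, adjusted p = 0.00066). For both genes the distance between the groups exceeded the spread within them. Or23a (+0.66), Or65b (+0.62), Or2a (+0.62), Or43a (+0.62) and Or19a (+0.58) also rose. Or67d, the receptor for the male pheromone cis-vaccenyl acetate, read −0.37, −0.37, −0.30 and −0.49 on the starved label against −0.76, −0.88, −0.62 and −0.93 on the fed label, a smaller change of +0.41 (SE 0.08, adjusted p = 0.00887). Or83c, a farnesol receptor, changed by +0.28 (adjusted p = 0.0253). Probes for Or19a and for the Or65 genes may also bind transcripts of their near copies, so these values are uncertain as to the copy.

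Receptors of basiconic sensilla, which detect mainly food odours, had smaller medians. Of 10 large basiconic receptors, all tested and with the carbon dioxide receptors Gr21a and Gr63a counted among them, 6 were higher (2 without fed replicates 1 and 2) with a median of +0.30. Of 16 small basiconic receptors, 14 were tested and 10 were higher (5 without fed replicates 1 and 2) with a median of +0.41. Or82a, Or67c and Or67b are of the small kind and Or85b of the large kind. Or92a, which responds to 2,3-butanedione, read 2.48, 2.56, 2.75 and 2.66 on the starved label against 2.10, 1.99, 2.14 and 2.07 on the fed label, a change of +0.53 (SE 0.07, adjusted p = 0.0024). Or22a, tuned to fruit esters, changed by +0.30 (adjusted p = 0.0188), although its probe may share transcripts with the near copy Or22b. Or59b, tuned to acetate esters, read 0.74, 0.96, 1.03 and 1.07 against 0.53, 0.64, 0.71 and 0.74, a change of +0.30 (SE 0.09, adjusted p = 0.0368) that 11 alternatives no longer called. Or35a, which is expressed in coeloconic sensilla, changed by +0.27 (adjusted p = 0.015).

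The 7 receptors without a call included several well-studied food and danger receptors. Or42b, the receptor for vinegar-related esters whose neurons are known to become more sensitive in hungry flies, read 1.59, 1.81, 1.95 and 1.63 on the starved label and 1.65, 1.96, 1.87 and 1.93 on the fed label. Its groups overlapped, and its change was −0.11 (SE 0.10, adjusted p = 0.449), which turned to +0.10 when arrays were centred on the median. Or7a changed by +0.07 (SE 0.10, adjusted p = 0.601). Or56a, the geosmin receptor, read 0.27, 0.19, 0.31 and 0.47 against 0.23, −0.10, 0.33 and 0.23, a change of +0.14 (SE 0.11, adjusted p = 0.355). Or43b (+0.13, adjusted p = 0.32) and Or85f (+0.36, adjusted p = 0.0822) were not called either, and the others were Or22b and Or65c.

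The co-receptor that all of these receptors need was not called. Orco read 4.09, 4.14, 4.20 and 4.16 on the starved label and 3.87, 4.0, 4.17 and 4.06 on the fed label. The groups overlapped at 1 fed-labelled array, and the change was +0.12 (SE 0.08, adjusted p = 0.246). The count of odorant receptors called higher dropped to 14 without fed replicates 1 and 2, with an unchanged median of +0.38, and it was 7 in a fit that took the spread from all 16 arrays, brain included. Median centring, quantile scaling and normexp correction gave 31, 29 and 22 receptors higher, and no receptor was called lower in any alternative. Receptor genes expressed mainly in the maxillary palp or larva gave mixed results, and dim genes were found among both rises and falls. Means on the starved and fed labels were −4.26 and −5.11 for Or33c, which rose, and −4.78 and −4.09 for Or1a, which fell. Of 7 palp receptors, 5 were tested, and without fed replicates 1 and 2 only 1 was called. Or33c (+0.86) and Or46a (+0.32) rose, and Or85e (−1.01), above background on 1 starved-labelled array, fell. Of 14 larval receptors, 3 were tested, with Or33a higher (+0.54) and Or1a lower (−0.68).

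**Figure D2:**
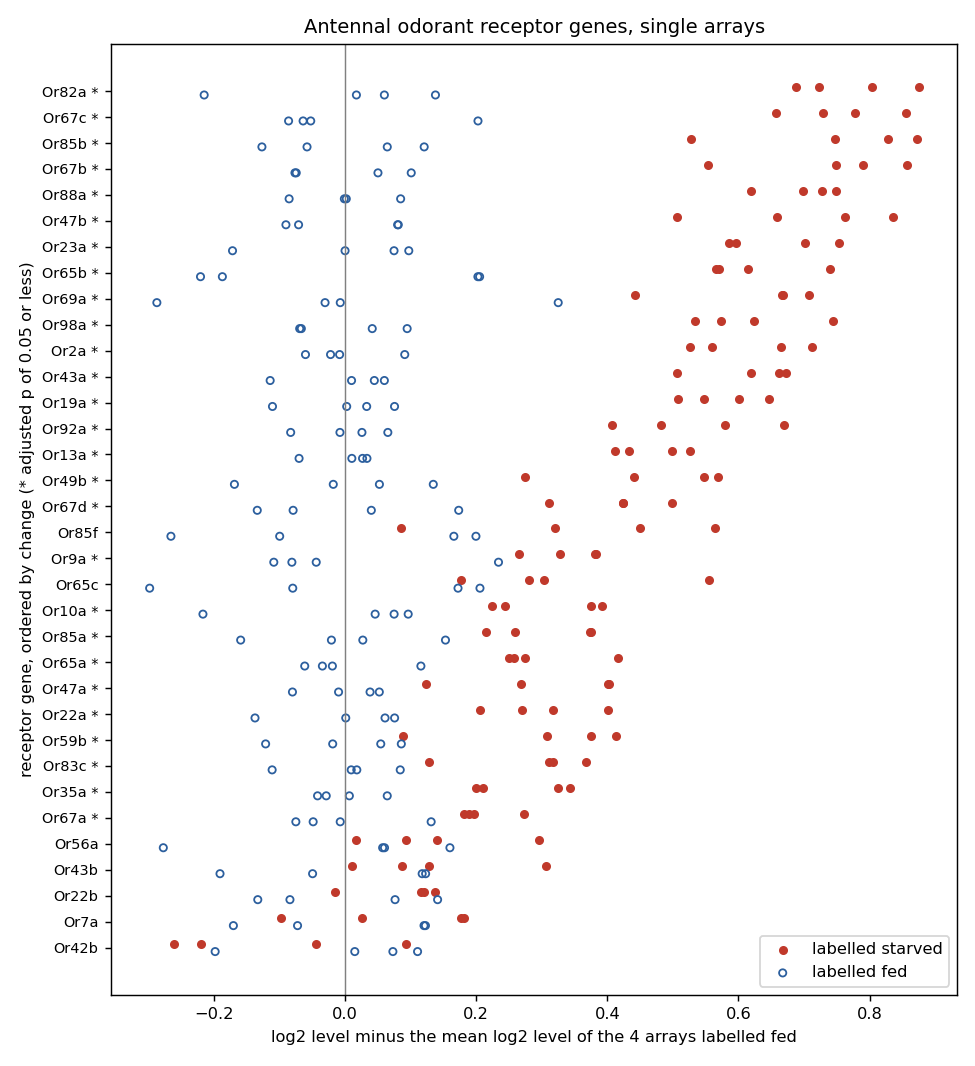
Log2 level of each of the 34 tested antennal odorant receptors on single arrays, relative to the mean of the 4 arrays labelled fed (x axis); receptors are ordered by change, with an asterisk for an adjusted p of 0.05 or less. Filled points (starved label) lie right of the open points (fed label) for most receptors, from +0.77 for Or82a to −0.11 for Or42b at the bottom.

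The ionotropic receptors did not move as the odorant receptors did. Of 14 tuning receptors of antennal neurons, 13 had a probe and 12 were tested, of which 5 were higher and 1 lower, with a median of +0.09. Ir75d read 2.91, 2.94, 2.78 and 2.85 on the starved label and 2.30, 2.51, 2.50 and 2.61 on the fed label, a change of +0.39 (SE 0.08, adjusted p = 0.00935). The groups of Ir75d did not overlap. Ir92a, which detects ammonia and amines (+0.31), Ir76a (+0.28), Ir31a (+0.26) and the acid receptor Ir64a (+0.24) also rose. The groups of Ir92a overlapped, and its call was lost in 12 alternatives and that of Ir64a in 11. Without fed replicates 1 and 2 limma called only 1 tuning receptor higher and 0 lower (1 lower at an unadjusted p of 0.05). Ir40a, which serves the sensing of dry air, fell by 0.41 at its brightest probe but changed by +0.16 at its other probe. Ir84a, the receptor for phenylacetaldehyde, changed by +0.07 with overlapping groups (adjusted p = 0.724). Among the Ir co-receptors, Ir25a (−0.09, adjusted p = 0.481) and Ir8a (−0.01, adjusted p = 0.961) were not called, and both turned positive when arrays were centred on the median. Ir76b was called higher (+0.30, adjusted p = 0.031), but its other probe read −0.58, so the gene has no settled direction. Over the whole Ir family, 21 of 66 genes were tested, 6 were higher and 4 lower, against 1 and 1 without fed replicates 1 and 2. The 2 largest falls were in genes near background, Ir62a (−0.77, above background on 1 starved-labelled array) and Ir51a (−0.72, above background on 2).

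Of the gustatory receptors found in the antenna, Gr10a stood out. It read 0.17, 0.26, 0.29 and 0.46 on the starved label and −0.60, −0.56, −0.56 and −0.59 on the fed label, a change of +0.87 (SE 0.07, adjusted p = 0.000551), and it kept its call under every alternative. Gr28b, which serves warmth sensing in the arista, rose by 0.40 (adjusted p = 0.00795), with +0.50 and +0.56 at its other probes. The 2 receptors that together detect carbon dioxide did not pass the test: Gr21a changed by +0.26 (adjusted p = 0.087) and Gr63a by −0.12 (adjusted p = 0.199), the second with a sign that turned under median centring. In the whole family 17 of 60 genes were tested, with 6 higher, Gr93a (+0.68) among them, and 3 lower, Gr22e (−1.44) and Gr2a (−0.80) among them. Gr2a was above background on 1 starved-labelled array. Of 9 TRP channels for temperature and related stimuli, 7 were tested and 0 were called by limma, beside 3 at an unadjusted p of 0.05 and 1 by the methods' t-test after adjustment.

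The secreted odorant carriers changed little although most are far above background. All 17 odorant-binding proteins of the antenna were tested, and 1 was higher and 1 lower, fewer than the 25.8% called over matched genes. Obp28a read 7.98, 7.91, 7.83 and 8.0 on the starved label and 7.76, 7.70, 7.96 and 8.09 on the fed label, a change of +0.05 (SE 0.10, adjusted p = 0.701). Obp83a (+0.15), Obp83b (−0.04), Obp19d (+0.24) and lush (−0.15), the carrier needed for detection of cis-vaccenyl acetate, were likewise within the spread between arrays. These signs carry no weight, since those of Obp28a, Obp83a, Obp83b and lush turned under at least 1 alternative. The gene called higher was Obp59a (+0.78, adjusted p = 0.00363), known for humidity sensing, but its other probe read −0.15. The gene called lower was Obp84a, with 4.98, 4.81, 4.79 and 4.92 against 5.31, 5.11, 5.45 and 5.35, a fall of 0.43 on the log2 scale (adjusted p = 0.00958). Over the whole family, 40 of 52 genes were tested, with 3 higher and 5 lower. Obp57b (+0.54) was among the first, and Obp56c (−1.91) and Obp58c (−0.89) among the second.

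Other perireceptor genes gave 6 calls, all higher, and 0 were lower by limma, at an unadjusted p of 0.05 or by the methods' t-test. Calls made up 23.1% of the tested membrane proteins and carriers and 27.3% of the degrading enzymes, beside 25.8% of matched genes. Of 17 membrane proteins and carriers, 13 were tested and 3 rose. They were takeout (to, +0.56), a carrier protein linked to feeding and the clock, the lipid-binding gene Npc2g (+0.80) and the ammonium transporter Amt (+0.52), which is required for ammonia detection. The groups of Npc2g overlapped. Changes of the membrane proteins and carriers ran from −3.52, which was not called, to +0.80, with 9 above and 4 below 0. Snmp1, the membrane protein that hands pheromones to their receptor, read 5.06, 4.96, 5.01 and 5.02 on the starved label and 4.82, 4.82, 4.94 and 4.99 on the fed label, a change of +0.12 that was not called (adjusted p = 0.173). Of 12 candidate odorant-degrading enzymes, 11 were tested and 3 rose. Cyp313a1 changed by +0.60 and by +0.98 at a further probe, Cyp305a1 by +0.57 and the esterase Est-P by +0.29.

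Cilium genes changed by small amounts, with medians of +0.13, +0.17, +0.21 and +0.01 for the lists below, in order. The shift of all genes under median centring, given above, was about as large or larger, so these medians carry little direction. Calls in either direction made up 29.2%, 40%, 27.3% and 30% of the lists below, in order, beside 25.8% of matched genes. Of 25 genes for intraflagellar transport, which carries proteins into the sensory cilium, 24 were tested, 7 were higher and 0 lower by limma (1 lower at an unadjusted p of 0.05), with a median of +0.13. Examples are the forkhead factor fd3F (+0.43, with −0.20 to +0.31 at its other probes), the kinesin subunit Klp64D (+0.40), IFT52 (+0.39) and Arl6 (+0.28, with +0.31 at a further probe). Limma called 0 of the 24 without fed replicates 1 and 2, where 6 passed an unadjusted p of 0.05 and the median was +0.10. Of 8 transition-zone genes, which guard the base of the cilium, 5 were tested and 2 rose. Mks1 read −1.60, −1.64, −1.77 and −1.76 on the starved label and −2.24, −2.29, −2.30 and −2.23 on the fed label, a change of +0.57 (SE 0.06, adjusted p = 0.00122). Cep290 (+0.41) had another probe at −0.53. The 11 axonemal dynein genes, used by the motile cilium of auditory neurons, all had a change above 0 with a median of +0.21, and 3 were called, Dnaaf4 (+0.52) and dtr (+0.39) with the largest changes. Limma called 0 of them without fed replicates 1 and 2, where 3 passed an unadjusted p of 0.05. In Johnston's organ, 10 of 11 transduction genes were tested, with 5 changes above and 5 below 0. The cilium gene dila rose (+0.38), the extracellular proteins nompA (−0.40) and eys (−0.53) fell, and the channels nompC (−0.35, adjusted p = 0.113), nan (+0.24, adjusted p = 0.0711) and iav (−0.04, adjusted p = 0.79) were not called.

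**Figure D3:**
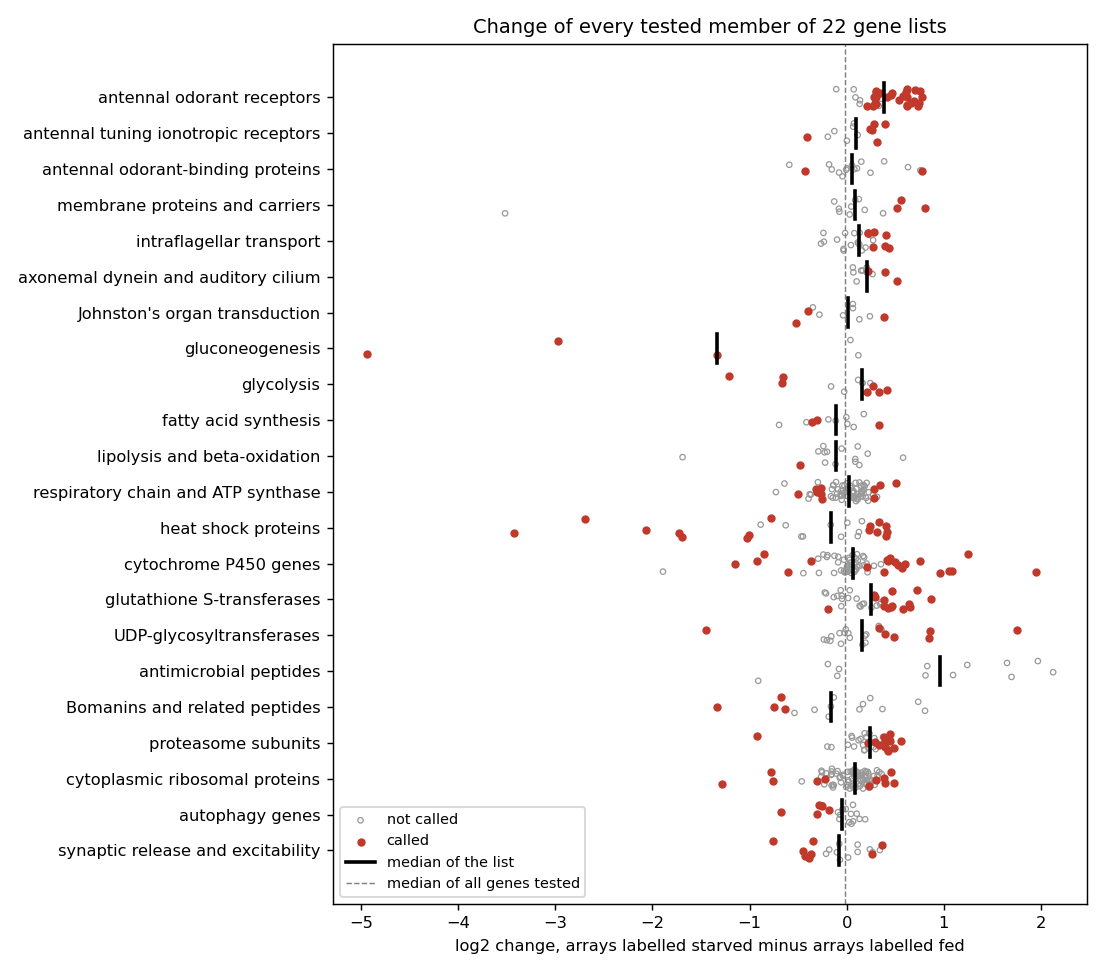
Change of every tested member of 22 gene lists on the log2 scale (x axis, arrays labelled starved minus arrays labelled fed); filled points are called at an adjusted p of 0.05, open points are not, black bars are list medians and the dashed line is the median of all genes tested. The odorant receptors form a compact group to the right of the line with a median of +0.38, while gluconeogenesis and the heat shock proteins reach far to the left.

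Among the metabolic lists, gluconeogenesis had the largest median change. Of 5 genes tested, 3 were lower and 0 higher by limma and by the methods' t-test, adjusted or not, with a median of −1.34. Pepck1 read −1.49, −0.78, −0.51 and −0.26 on the starved label and 2.27, 2.53, 1.99 and 2.07 on the fed label, a change of −2.97 (SE 0.25, adjusted p = 0.000602), with −3.04 at its other probe. Pepck2, the paralog encoded beside it, read −7.17, −7.04, −6.36 and −6.45 against −1.39, −1.75, −2.32 and −1.82. It was above background on 2 of 4 starved-labelled and on 4 of 4 fed-labelled arrays, so its change of −4.93 (adjusted p = 0.000128) starts from a level at the edge of detection. Fructose-bisphosphatase (fbp) read −1.72, −1.56, −0.77 and −1.08 against 0.25, 0.27, 0.11 and −0.40, a change of −1.34 (SE 0.23, adjusted p = 0.00538). The groups of all 3 genes were separate. Pepck1 was higher on fed replicates 1 and 2, where gut genes were highest, than on fed replicates 3 and 4, and the part of gut RNA in its change was not tested.

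Genes that respond to dietary sugar were mixed. Of 13 listed, all tested, 4 were higher and 1 lower, with 5 changes above and 8 below 0 and a median of −0.05. The transcription factor gene sugarbabe (sug), induced by sugar, read −1.51, −1.39, −1.15 and −1.66 on the starved label and −2.81, −2.56, −3.46 and −3.46 on the fed label, a change of +1.65 (SE 0.22, adjusted p = 0.00213). The repressor cabut (cbt, +0.38) and Pgd (+0.48), an enzyme of the pentose phosphate pathway, rose as well. Srg1, counted in the same list, had the largest rise of all named genes, +3.21 (SE 0.26, adjusted p = 0.000551), with −0.96, −0.75, −0.78 and −0.99 against −3.64, −3.49, −4.49 and −4.69. The only gene of the list that fell, Mal-A6, followed the gut pattern described above.

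Glycolysis was split. Of 13 genes, all tested, 4 were higher and 3 lower. The enzymes of the central steps Pgi (+0.41) and Tpi (+0.33) rose, whereas hexokinase A (Hex-A, −0.67, and −0.88 at a further probe), Hex-C (−0.66) and lactate dehydrogenase (Ldh, −1.21) fell. Ldh read −1.01, −1.13, −0.87 and −0.54 on the starved label and 0.45, −0.09, −0.25 and 1.16 on the fed label, without overlap but with a wide spread in the second. Without fed replicates 1 and 2, 1 glycolysis gene was higher and 1 lower. The stores of sugar and fat gave few calls. Of 9 tested genes of trehalose and glycogen, glycogen synthase (Glys, −0.39) alone was called lower. For Glys the call was lost in 9 alternatives, leaving out fed replicates 1 and 2 among them. The lowest change of that list, −2.17, was not called. Of 11 genes of fatty acid synthesis, malic enzyme (Men, +0.33) rose and the acyltransferase mino (−0.36) and fatty acid synthase 1 (FASN1, −0.31) fell. The other probes of Men read +0.01 and +0.06 and were not called. Of 15 tested genes of lipolysis and beta-oxidation, the carnitine palmitoyltransferase whd (−0.48) was called lower, while the lowest change, −1.69, was not called. Without fed replicates 1 and 2, 1 gene of this list was higher and limma called 0 lower (3 lower at an unadjusted p of 0.05).

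The mitochondrial lists were close to the shares over all genes or below them. Of 16 citric acid cycle genes, SdhB (+0.28) rose. Of 72 tested subunits of the respiratory chain and ATP synthase, 4 rose and 6 fell with a median of +0.03. In both lists limma called 0 higher without fed replicates 1 and 2, with 3 and 5 higher at an unadjusted p of 0.05, and 4 respiratory genes were lower. ATPsynD (+0.50) and ND-B22 (+0.35) had the largest rises, and ATPsynepsilonL (−0.51) and ND-AGGG (−0.31) the largest falls. A list of 12 markers of feeding state mixed genes of opposite usual direction, such as Pepck1, raised by fasting, and sug, induced by sugar. Its counts therefore have no single direction. Of the 12, sug rose, 3 fell, among them Pepck1 and Thor (−0.81), and 8 were not called.

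**Figure D4:**
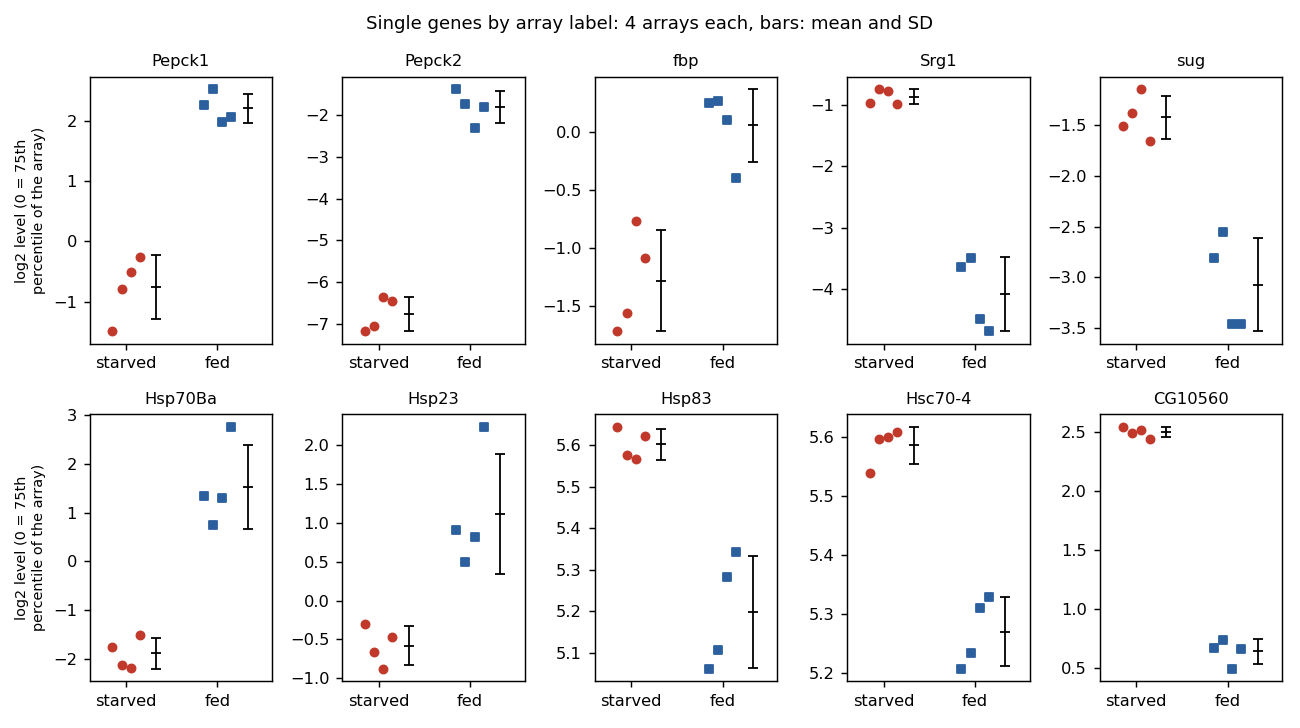
Log2 level of 10 metabolic, stress and detoxification genes on single arrays (y axis, 0 is the 75th percentile of the array), starved label left and fed label right, with mean and SD of 4 arrays beside each group. Pepck1, Pepck2, fbp, Hsp70Ba and Hsp23 lie lower, and Srg1, sug, Hsp83, Hsc70-4 and CG10560 lie higher, on every array labelled starved.

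The heat shock proteins moved in both directions. Of 28 genes, 26 had a probe and 25 were tested, with 7 higher and 8 lower. The 8 that fell were stress-inducible genes of the Hsp70 and small heat shock families. Hsp70Ba read −1.75, −2.12, −2.18 and −1.51 on the starved label and 1.33, 0.74, 1.29 and 2.77 on the fed label, a change of −3.43 (SE 0.39, adjusted p = 0.00126). Hsp70Bc (−2.69) and Hsp70Bb (−2.07) fell with it, although probes for these near-identical copies cannot be assigned to 1 copy with certainty, and Hsp70Aa (−0.63, adjusted p = 0.363) was not called. Hsp23, a small chaperone, read −0.31, −0.66, −0.88 and −0.47 against 0.90, 0.50, 0.82 and 2.24, a change of −1.69 (SE 0.34, adjusted p = 0.00951). Hsp26 changed by −1.72 and Hsp27 by −1.01. In each of these genes fed replicate 4 was the highest array. Hsp68 showed the same order but was not called (−0.89, adjusted p = 0.0737).

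The 7 that rose included Hsc70-4, a chaperone that cells make at all times. Hsp83, the fly Hsp90, read 5.64, 5.58, 5.57 and 5.62 on the starved label and 5.06, 5.11, 5.28 and 5.34 on the fed label, a change of +0.40 (SE 0.08, adjusted p = 0.00764). Hsc70-4 read 5.54, 5.60, 5.60 and 5.61 against 5.21, 5.23, 5.31 and 5.33, a change of +0.32 (SE 0.06, adjusted p = 0.00627). The cofactor DnaJ-1 (+0.41), Hsc70-2 (+0.41) and the mitochondrial chaperonin Hsp60A (+0.23) also rose. The other probe of Hsp83 read +0.19 and those of Hsp60A −0.006 and +0.088, with 0 called the same way. Those of DnaJ-1 read +0.49 and +0.61 and those of Hsc70-4 +0.15 and +0.40, with 1 of each called. Hsc70-2 lost its call in 11 alternatives and Hsp60A in 13. Without fed replicates 1 and 2, 2 of these genes were called higher and 9 heat shock genes were called lower.

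Detoxification families held many of the largest rises. Called in either direction were 42.4% of tested glutathione S-transferases, 32.3% of P450 genes and 30.4% of UDP-glycosyltransferases, beside 25.8% of matched genes. Of 33 tested glutathione S-transferases, which conjugate reactive compounds, 13 rose and 1 fell, with a median of +0.25. GstE3 read 5.05, 5.04, 4.94 and 4.79 on the starved label and 4.04, 4.02, 4.14 and 4.16 on the fed label, a change of +0.86 (SE 0.08, adjusted p = 0.00066). GstE1 (+0.73) and GstD1 (+0.58) kept their calls under every alternative, as did GstE3, whereas the fall of GstE13 (−0.20) was lost in 13. Of 81 cytochrome P450 genes, 65 were tested, 16 rose and 5 fell, but the median was +0.06, so the family did not move as a whole. Cyp6a8 changed by +1.95 (SE 0.16, adjusted p = 0.000551), with 4.90, 5.20, 5.45 and 4.65 against 3.20, 3.10, 3.08 and 3.01. Cyp6d5 (+1.25), Cyp4p3 (+1.09), Cyp4p1 (+1.05) and Cyp6a21 (+0.96) followed. Cyp309a1 (−1.15) and Cyp6g2 (−0.92) had the largest called falls in the list, while Cyp4g1 changed by −1.89 without a call (adjusted p = 0.121). A further P450 gene, Cyp12d1-d, fell by 2.38 (adjusted p = 0.0014), with a near-identical copy that its probe may also bind.

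Of 35 UDP-glycosyltransferases, 23 were tested, 6 rose and 1 fell. Ugt37E1 read −0.13, 0.04, −0.06 and 0.00 on the starved label and −2.15, −1.78, −1.80 and −1.45 on the fed label, a change of +1.76 (SE 0.13, adjusted p = 0.000475). Ugt35C1 (+0.85) and Ugt37C2 (+0.84) rose too, and Ugt37A2 (−1.45) fell. Ecdysteroid kinase-like genes, a family that has been linked to detoxification, were listed after several of them appeared among the largest rises, so their count is a description. Of 42 such genes, 32 were tested, 12 rose and 4 fell (9 and 1 without fed replicates 1 and 2). CG10560 read 2.55, 2.50, 2.52 and 2.44 against 0.67, 0.74, 0.49 and 0.66, a change of +1.86 (SE 0.07, adjusted p = 3.77e-05). CG10553 (+1.74), CG6908 (+1.65), CG11892 (+1.50) and CG10562 (+1.38) were separate between the labels on all arrays as well. CG16898 (−1.80) and CG31380 (−1.35) fell, the second from a level above background on 1 starved-labelled array. Of 15 tested redox and metal genes, the peroxiredoxin Prx2 (+0.74) and catalase (Cat, +0.55) rose under every alternative, and the metallothionein MtnC (−2.36) fell, with values of −4.15 and −2.89 on the 2 fed-labelled arrays rich in gut transcripts and −6.10 and −5.91 on the other fed-labelled pair, and without the first pair it was not called.

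The antimicrobial peptide genes varied widely between extracts of 1 label. Of 17 antimicrobial peptide genes, 12 were tested and 0 were called by limma, beside 1 at an unadjusted p of 0.05 and 0 by the methods' t-test, with a median of +0.96. AttC, an attacin, read 0.72, −1.79, 1.08 and 3.30 on the starved label and −1.04, 0.08, −1.73 and −2.51 on the fed label, a change of +2.12 with an error of 1.0 (adjusted p = 0.138). The diptericin gene DptB read −0.15, −4.31, −0.25 and 2.06 against −2.07, −0.77, −3.55 and −4.12, and DptA read −1.18, −4.70, −0.80 and 1.21 against −1.57, −1.29, −2.96 and −4.02. Starved replicate 2 was the lowest and starved replicate 4 the highest of the 4 for all 3 genes. Without starved replicate 2, which held these low values, 6 of the 12 were called higher, and the median was +1.46. Leaving out the array that goes against a rise favours such calls, so this count is no support for a rise. The defensin gene Def went against this order, with −2.36, −1.23, −1.37 and −1.95 against −2.12, 0.63, −0.89 and −0.88, a change of −0.91 (adjusted p = 0.216). The Turandot genes, secreted stress factors, behaved likewise: 4 of 8 were tested, 0 were called by limma or the methods' t-test, 1 passed an unadjusted p of 0.05, and the median was +1.05. TotM read −1.90, −0.98, 0.85 and −1.16 against −1.85, −1.64, −1.86 and −3.22, with starved replicate 3 highest and fed replicate 4 lowest. TotX had the same 2 extremes, with −3.78 on starved replicate 3 and −8.47 on fed replicate 4.

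Bomanins, short peptides induced by the Toll pathway, were listed with other immune-induced peptides, and only lower changes were called. Over the list, 6 changes lay above and 9 below 0, with a range of −1.34 to +0.81. GNBP-like3, an immune peptide gene outside the list, was called higher (+1.59). Of 15 tested genes of the Bomanin list, 4 fell and 0 rose by limma, with 3 higher at an unadjusted p of 0.05 and 0 by the methods' t-test. Calls made up 26.7% of these genes, beside 25.8% of matched genes. BomT3 read 3.86, 3.67, 3.27 and 3.10 on the starved label and 4.16, 4.90, 5.24 and 4.94 on the fed label, a change of −1.34 (SE 0.25, adjusted p = 0.00699), with −0.64 at its other probe. BomS6 read 0.84, 1.03, 1.32 and 1.05 against 1.50, 2.15, 1.75 and 1.83, a change of −0.75 (SE 0.15, adjusted p = 0.00891) that every alternative called. BomS4 fell by 0.68 on the log2 scale. Of 12 tested peptidoglycan recognition proteins, which sense bacterial walls, 4 fell and 0 rose by limma, at an unadjusted p of 0.05 or by the methods' t-test. PGRP-SC1b (−1.09) and PGRP-SC1a (−0.77), near-identical amidases that are abundant in the gut, had the largest falls, and without fed replicates 1 and 2, 1 gene of this list was called. Of 22 tested signalling genes, SPE, a protease of the Toll pathway, rose (+0.37, lost in 13 alternatives, leaving out fed replicates 1 and 2 among them), and Dredd, the caspase of the Imd pathway, fell (−0.31).

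**Figure D5:**
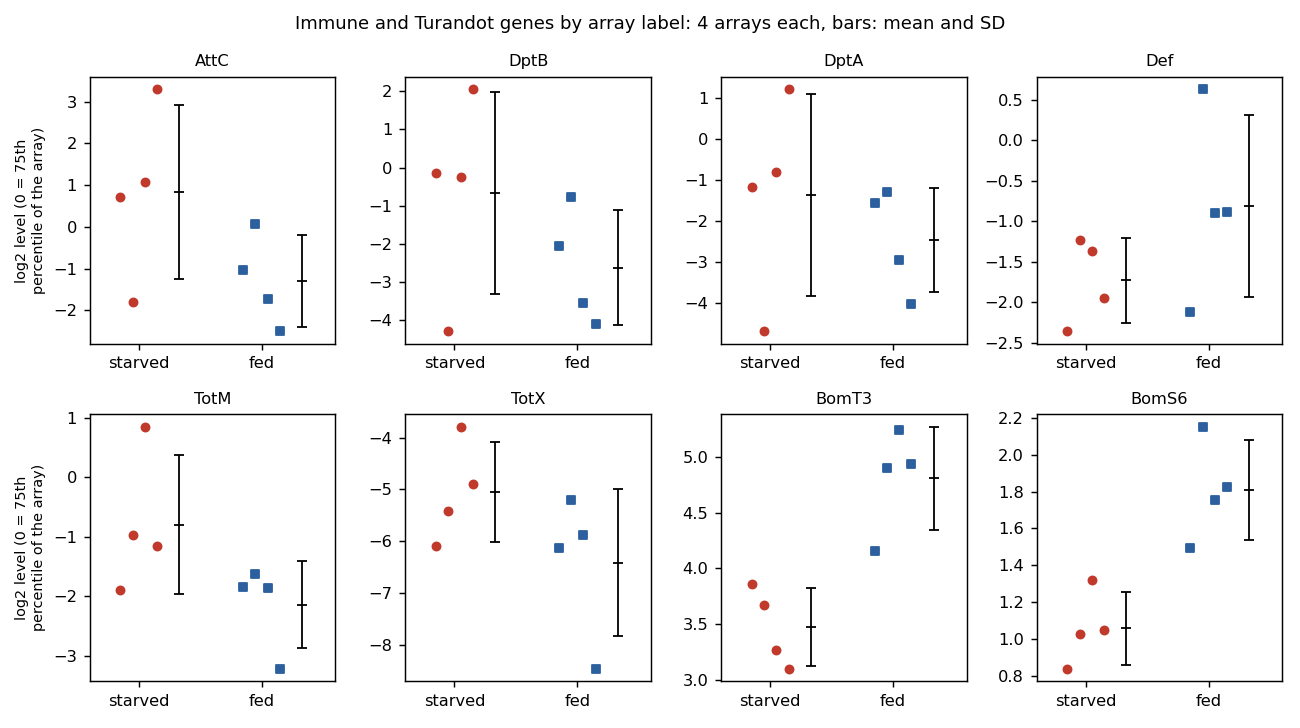
Log2 level of antimicrobial peptide, Turandot and Bomanin genes on single arrays (y axis, 0 is the 75th percentile of the array), starved label left and fed label right, with mean and SD of 4 arrays beside each group. AttC, DptB and DptA spread over several log2 units among arrays of 1 label, whereas BomT3 and BomS6 separate the labels.

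Genes of protein turnover and growth showed 1 class that leaned upward. Called in either direction were 38.9% of tested proteasome genes and 26.3% of autophagy genes, beside 25.8% of matched genes. Of 48 proteasome genes, 36 were tested, 13 rose and 1 fell, and 33 changes were above 0 with a median of +0.24. Rpn3 read 4.06, 4.19, 4.20 and 4.22 on the starved label and 3.50, 3.72, 3.58 and 3.65 on the fed label, a change of +0.56 (SE 0.07, adjusted p = 0.0018), and Rpn7 changed by +0.48. The gene that fell, Prosbeta2R2 (−0.93), encodes a subunit specific to the testis. Without fed replicates 1 and 2, 4 proteasome genes were called higher. Ribosomal proteins were mostly uncalled, with 12.2% of cytoplasmic and 13.9% of mitochondrial ones called in either direction, beside 25.8% of matched genes. Of 90 tested cytoplasmic ones, 6 rose, RpL35 (+0.46) and RpS28-like (+0.48) among them, and 5 fell, RpS5b (−1.28) and RpL37-2 (−0.78) among them, against 1 and 4 without fed replicates 1 and 2. Of 72 mitochondrial ones, 7 rose, mRpL22 (+0.43) and mRpS5 (+0.38) among them, and 3 fell, mRpL34 (−0.29) and mRpS18C (−0.30) among them, against 2 and 1 without these arrays. Of 19 tested autophagy genes, 5 fell and 0 rose by limma, at an unadjusted p of 0.05 or by the adjusted t-test of the methods, with Atg17 (−0.68) and the starting kinase Atg1 (−0.30) as examples, and 2 fell without fed replicates 1 and 2.

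Of 24 genes of insulin and TOR signalling, 5 fell and 2 rose. Calls made up 29.2% of them, close to the 25.8% of matched genes, so the count does not set the list apart. Without fed replicates 1 and 2 limma called 4 lower and 0 higher (6 higher at an unadjusted p of 0.05). Thor, the translation repressor 4E-BP that insulin signalling holds down, read 3.43, 3.38, 3.81 and 3.93 on the starved label and 4.22, 4.40, 4.44 and 4.73 on the fed label, a change of −0.81 (SE 0.15, adjusted p = 0.00768) that every alternative called. The factor foxo, which activates Thor when insulin is low, fell by 0.34, REPTOR by 0.40 and the kinase Akt by 0.40. Akt had a further probe at +0.16, and the other probe of REPTOR read −0.006. The rise of gig (+0.19), which restrains TOR, was not called in 13 alternatives.

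Synaptic genes were mixed, with 42.1% of those tested called in either direction, beside 25.8% of matched genes. Of 19 tested genes for transmitter release and excitability, 6 fell and 2 rose, with 8 changes above and 11 below 0 and a median of −0.08. nSyb, the vesicle protein that drives fusion, read 2.23, 2.06, 1.94 and 2.22 on the starved label and 3.00, 2.65, 2.85 and 2.98 on the fed label, a change of −0.75 (SE 0.10, adjusted p = 0.00222). The active zone gene brp (−0.37, and −0.68 to −0.35 at its other probes), Syx1A (−0.34), futsch (−0.43) and the potassium channel genes Sh (−0.46) and Shab (−0.39) fell. The 3 other probes of Sh ran from −0.57 to +0.14, and 2 of them were called lower. ChAT (+0.36) and Rab3 (+0.26) rose at their brightest probes and were lower at others, with averages over probes of −0.02 and −0.04. The share of brain peptide transcripts was higher on fed replicates 1 to 3, as given above, and without fed replicates 1 and 2 there were still 5 synaptic genes lower and 1 higher. Of 29 receptors for neuromodulators, 23 were tested and 30.4% of these were called, beside 25.8% of matched genes. Octbeta3R (+0.40, but −0.06 over its probes) and Dop1R2 (+0.36) were among the 4 that rose, and GABA-B-R1 (−0.61) and 5-HT7 (−0.61) among the 3 that fell. The other probe of 5-HT7 read −0.15 and was not called. GABA-B-R1, which mediates presynaptic inhibition of olfactory neurons, read −1.22, −1.32, −1.51 and −1.33 on the starved label and −0.59, −0.96, −0.73 and −0.65 on the fed label, without overlap. Of 10 clock genes, 0 were called by limma or the methods' t-test or passed an unadjusted p of 0.05. Of 11 glial genes, 0 were called by both tests, and 4 passed an unadjusted p of 0.05. The lowest change among the glial genes was −2.10, without a call.

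Some of the largest changes lay outside these classes. Gnmt, a methyltransferase that uses up S-adenosylmethionine, read −3.05, −2.94, −1.62 and −1.49 on the starved label and 1.82, 1.08, 0.37 and 0.52 on the fed label, a change of −3.22 (SE 0.45, adjusted p = 0.00244) that every alternative called. A transcript listed as RH06404 (−3.0) ranked the 8 arrays in the same order, and both genes were highest on fed replicates 1 and 2. CG14292 (−3.04) followed the gut genes on the fed label, with −0.19 and 0.62 on fed replicates 1 and 2 and −1.55 and −2.93 on the other pair. The largest rises outside the classes were those of BT023614 (+2.21), whose starved-labelled values ran between −5.17 and −2.01, TC203931 (+1.85) and the immune peptide gene GNBP-like3 (+1.59). Among genes usually made by blood cells or fat body, the phagocytic receptor NimC1 (+1.28) and the lipoprotein gene apolpp (+1.10) rose under every alternative. NimC1 read −0.87, −1.15, −0.91 and −0.76 on the starved label and −2.31, −2.05, −2.17 and −2.28 on the fed label. The fat body list as a whole, given above by its summed level, overlapped between the labels.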

How the data were processed

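Antennal RNA of 8 extracts was measured on 1-colour Agilent arrays, and groups were taken from the sample labels. The authors deposited the scanner output of Feature Extraction 9.1, in which each spot's signal intensity is background subtracted and not scaled between arrays, and a table of log2 values, which was used as an alternative only. Each column of that table equals the log2 signal of its array less a constant, with medians of −3.33, −3.38, −3.36 and −3.32 for the starved label and −3.06, −3.06, −3.15 and −3.23 for the fed label. The genome build behind the probes is not given in the sources used here, so names come from a Release 6 gene table (20743 of 32162 probes matched to 13137 genes) and no coordinates or sequences are printed.

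Control and outlier spots were left out, log2 signals were set relative to the array's 75th percentile, and spots of 1 probe were averaged. The scanner flags a spot as well above background, and a probe took this flag if a share of 0.5 or more of its spots had it. Labels were compared with limma 3.58.1 (lmFit, eBayes) over 20586 probes, two-sided, with Benjamini-Hochberg adjustment at 0.05. The difference from brain was the interaction term of 1 fit over 16 arrays. Single values were compared by exact permutation. A gene is given by its brightest tested probe. Nothing in the sources says whether replicates were raised separately beyond using different flies, so p-values measure the spread between extracts. Arrays give no counts, so precision rests on their number, and dim genes are left untested. No spot was saturated.

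The comparison and the 52 gene lists were chosen with earlier results of these data known, and 4 further lists were added after their values were seen. The text names the 10 largest rises and falls among called probes above background on all 8 arrays without overlap, the 2 largest called rises and falls of each list, a fixed set of well-known genes, and other list members chosen after their values were seen. The main fit held no term for the slide, which is also the replicate number. Alternatives were other scalings, normexp with offset 50, other filters, the deposited log2 table, probe averages, array weights, all 16 arrays, the replicate block, the methods' t-test and leaving out arrays. Before use, the fit was tested on simulated data with known changes. Software was R 4.3.3 (package data.table, version 1.17.8), Python 3.11.15, matplotlib 3.10.9 for plots, scipy 1.17.1, pandas 2.3.3 and numpy 2.4.6. The brain arrays were used only as a comparison, and the study's recordings, behaviour and silencing were not analysed here.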

Additional observations from a re-analysis of the deposited data

Results flagged for a closer look

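Among 448 sets of 4 arrays searched, 18 (4.02%) held an array whose gap to its nearest neighbour took up an unusually large share of the range, about the 1 in 20 that chance gives. On the fed label, replicate 1 was high for Or67c (0.883 of the range) and Ir51a (0.905) and low for Gr22e (0.901) and can (0.864). Replicate 2 was high for GNBP-like3 (0.860), SdhB (0.983) and Sh (0.846). Replicate 3 was high for Ir92a (0.911), Cyp313a1 (0.910), mRpL22 (0.833) and IFT52 (0.903) and low for CG16898 (0.842). Replicate 4 was low for CG10562 (0.889) and TotM (0.859). On the starved label, replicate 1 was low for Gr2a (0.940), replicate 3 was high for Pdf (0.895) and for the share of brain peptide transcripts (0.867), and replicate 4 was high for the summed testis and male gland list (0.918).

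The change differed between antennae and brain for 17 of 213 named genes by the interaction term of limma. Many of these genes were named for a called antennal change. The count therefore describes the named genes only, and the share over all genes was not taken. The differences, antennal minus brain change on the log2 scale, were positive for the odorant receptors Or85b (1.24), Or65b (1.24), Or22a (1.34), Or7a (1.05), Or88a (0.89), Or2a (0.85) and Or67c (0.73), for Gr10a (0.63) and for Cyp4p3 (1.26). The probes of these receptors averaged between −8.71 and −5.02 in brain, where they were dim. In the order given, the brain changes of the 7 odorant receptors were −0.50, −0.62, −1.04, −0.98, −0.20, −0.24 and +0.03. Or7a changed by only +0.07 in antennae. The lowest level well above background on a brain array lay between −7.96 and −7.39. In brain Or67c (−8.71) and Obp56c (−8.35) averaged below this range and Or65b (−7.87) within it. For genes this dim in brain, the difference cannot separate a response of the antenna from background signal in brain. The difference was negative for Def (−3.60), Obp56c (−1.93), AstA (−1.91), Est-P (−1.53), Cyp6g2 (−1.15), Ser7 (−1.05), LManII (−0.81) and cbt (−0.74). For Def and Est-P the brain arrays labelled starved were higher by 2.69 and 1.82, and for cbt by 1.13. With the replicate number as a block, Or65b (adjusted p = 0.0795), Or22a (0.0633) and Est-P (0.0574) no longer passed.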

How the results depend on the processing

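The number of genes called depended on the scaling and on single arrays. As reported, the genes higher in antennae labelled starved numbered 1809 and the genes lower in antennae labelled starved 3179. Centring on the median gave 5528 and 1449, with 148 genes higher that were lower as reported, and quantile scaling gave 2866 and 1709. Normexp correction gave 1465 lower genes, no filter on dim probes gave 1186 higher genes, and a 2-fold threshold gave 40 and 543. The methods' t-test without adjustment gave 2823 higher genes. Without fed replicates 1 and 2, a setting chosen after the data were seen, 871 were higher and 2057 lower, of which 752 and 1820 were shared with the report. Leaving out 1 array at a time gave 1068 to 1707 higher and 2385 to 3058 lower genes, with the fewest higher ones without starved replicate 2. The cause of these shifts was not tested. The replicate number, which is also the slide, as a block gave 1636 and 2894 and changed no sign of a named gene. Deviations from the group means of same-numbered arrays correlated at 0.107, −0.114, 0.058 and −0.082, and only starved replicate 1 correlated best with its own number, so the arrays were not treated as pairs.

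For 213 named genes, 3655 values kept direction and call, 534 values of 117 genes lost the call and 26 values of 15 genes gained it. Reversals were limited to 33 values of 19 genes. Median centring turned Ir25a (0.12), Ir8a (0.20), lush (0.053), Obp83b (0.16), Or42b (0.10), Gr63a (0.091), iav (0.17) and GstE13 (0.010). Quantile scaling turned iav (0.052) and Ir8a (0.0018), normexp turned Ir62a (0.034), Gr2a (0.051) and Ir8a (0.0040), and array weights turned Or7a (−0.00078). Averaging all probes of a gene turned Ir76b (−0.14), Cep290 (−0.061), ChAT (−0.018), Rab3 (−0.043) and Octbeta3R (−0.059). Without fed replicates 1 and 2, Obp28a (−0.095), Obp83a (−0.081) and Or7a (−0.050) turned. Leaving out 1 array at a time gave −0.075 to 0.038 for Ir8a, −0.0047 to 0.13 for Obp28a, −0.14 to 0.053 for Obp83b, −0.014 to 0.16 for Ir84a and −0.082 to 0.016 for iav.

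For the 56 lists, the median moved beyond the spread between slides in 112 values of 47 lists and stayed within it in 1008. Signal over background limited the dim receptor families, with 21 of 66 ionotropic and 17 of 60 gustatory receptors tested.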

Other observations

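Genes and transcripts without a current gene name behaved differently as a class. Of 5004 tested transcripts that keep the name in the files, 6.57% were higher and 27.0% were lower on the arrays labelled starved, with a median change of −0.16, whereas of 9881 matched genes 13.4% were higher and 12.4% lower, with a median of +0.03. The excess of lower over higher calls in the whole comparison therefore sat in the unnamed transcripts.

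Several gonad-linked copies of general genes were lower on the arrays labelled starved, while the medians of their lists were not. The proteasome subunit copy Prosbeta2R2 changed by −0.93, beside a median of +0.24 for its list, and the ribosomal protein copy RpS5b, known from the germ line, by −1.28, beside +0.09. RpS5b read −5.57, −6.20, −5.98 and −6.03 on the starved label and −3.80, −4.97, −4.50 and −5.37 on the fed label. The germ-line helicase gene vas read −4.84, −4.65, −5.09 and −5.20 against −4.44, −3.63, −3.72 and −3.97. These genes are dim in antennae, and the shares of gut and brain transcripts given above also differed between the labels. Their part in these values was not tested.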
